A study of Mus musculus with 4 samples.

Results

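Transcripts of 9 maternal-effect genes, whose products are made by the oocyte and used by the embryo after fertilisation, were followed across sections of aged and young mouse ovary. The 9 genes (Ooep, Padi6, Khdc3, Nlrp5, Nlrp14, Tle6, Zar1, Dppa3 and H1foo) were taken by symbol from tables of 32285 genes, and all 9 were present. RNA was caught on arrays of barcoded spots (10x Genomics Visium), and each captured molecule was counted once by its unique molecular identifier (UMI). A spot can hold several cells or part of one, so that no value belongs to a single oocyte. Ovaries came from naturally aged outbred CD-1 females of 15 to 16 months (aged) and of 3 to 4 months (young), with 4 animals and 4 sections per age. Each of 4 capture areas held 1 aged and 1 young section, and sections are numbered here by their area. One section of an ovary holds only the follicles that the cut met, and the stage of the oestrous cycle is not given in the sources used here.

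The ovary keeps its oocytes inside follicles, where they grow and store RNA and protein while surrounded by granulosa cells. Transcription falls silent in the fully grown oocyte, and early development relies on these stores. Ooep, Nlrp5, Khdc3 and Tle6 encode parts of the subcortical maternal complex, a protein assembly beneath the oocyte's surface, and Padi6 is needed for the cytoplasmic lattices on which oocyte proteins are stored. Zar1 encodes an RNA-binding protein of the oocyte, Dppa3 a protein that protects maternal DNA methylation in the zygote, and H1foo the linker histone of the oocyte. Nlrp14 belongs to the same protein family as Nlrp5.

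In the annotation of build mm10 the genes lie on 6 chromosomes. Ooep (chr9:78376109-78378725, minus strand) and Khdc3 (chr9:73101836-73104438, plus strand) share chromosome 9. Nlrp5 (chr7:23385889-23441922, plus) and Nlrp14 (chr7:107166990-107198102, plus) share chromosome 7, and Dppa3 (chr6:122626410-122630272, plus) and H1foo (chr6:115944938-115950236, plus) share chromosome 6. Padi6 lies at chr4:140727355-140742643 (minus), Tle6 at chr10:81590904-81601073 (minus) and Zar1 at chr5:72576806-72581254 (minus). Exons of Khdc3 overlap those of the protein-coding gene Gm20509 on the same strand, so that its counts may have been split, and Nlrp5 and Nlrp14 belong to a gene family in which similar copies can share reads. A microRNA gene, Gm25196, lies within Nlrp5 outside its exons.

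Promoter sequences are shown because the 9 genes are caught in the same spots, as described below. RefSeq promoter windows of GRCm38.p6, from 250 bases before to 50 bases after the start, matched 7 of the 9 genes (H1foo under the symbol H1f8), with 9 windows in all. They were searched for motifs of NOBOX and LHX8, for the TATA box and for the E-box CANNTG. The E-box reads the same on both strands and is the motif bound by FIGLA and other basic helix-loop-helix factors. An E-box was present in 9 of the 9 windows and in 72.3% of 32851 windows of all genes. The NOBOX motifs TAATTG and TAATTA were present in 2 and 1 of the 9 windows, against 8.00 and 5.29% of all windows. The LHX8 motif TGATTG was present in 2 (14.0% of all windows) and the TATA box TATAAA in 1 (13.6%). In Ooep, Padi6 and Khdc3 an E-box began 78 bases before the start, in Zar1 one began 83 bases and in H1foo 66 bases before it. The range from 90 to 60 bases was chosen after these positions were seen, and 14.0% of all windows had an E-box beginning within it. All positions in this paragraph count from the RefSeq start. For Ooep, Khdc3 and Zar1 that start lies inside the mm10 gene coordinates given above, and so do the stretches printed below. What is called before the start is thus within the annotated gene for these genes, and the positions depend on the annotation used. The bases from 100 to 51 before the start of these 5 genes are printed 5′ to 3′ on the gene's strand, with the E-box in capitals (Ooep chr9:78378639-78378688, minus strand; Padi6 chr4:140742694-140742743, minus strand; Khdc3 chr9:73102298-73102347, plus strand; Zar1 chr5:72581135-72581184, minus strand; H1foo chr6:115944831-115944880, plus strand).
Ooep: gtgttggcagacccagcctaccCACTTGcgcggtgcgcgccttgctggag
Padi6: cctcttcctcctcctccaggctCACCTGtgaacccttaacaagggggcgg
Khdc3: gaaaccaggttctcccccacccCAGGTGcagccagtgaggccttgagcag
Zar1: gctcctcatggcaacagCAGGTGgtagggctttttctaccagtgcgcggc
H1foo: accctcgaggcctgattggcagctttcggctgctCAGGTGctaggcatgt
Nlrp5 and Tle6, each with 2 windows, had no E-box in that range. In Nlrp5 they began 186 and 172 bases before the first start and 145 and 107 before the second. At the first start of Tle6 the E-box CACGTG began 183 and 119 bases before it and CAAATG 1 base before it. The letters are a description of these windows and carry no measurement of binding.

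Sections in the aged group held 257 to 653 spots and 2777948 to 9506517 UMIs, and those in the young group 532 to 762 spots and 9702600 to 21619232 UMIs. Median depth per spot was 8779 to 14928 UMIs in aged and 14989 to 28120 UMIs in young sections. Mitochondrially encoded genes took 1.31 to 2.96% of UMIs in aged and 0.597 to 1.88% in young sections. Spots with at least 5 UMIs over 6 other oocyte genes (Zp1, Zp2, Zp3, Gdf9, Bmp15 and Figla) are called oocyte-rich here. There were 2, 6, 33 and 3 of them in aged sections 1 to 4 and 99, 69, 4 and 69 in young sections 1 to 4, so that area 3 ran against the other areas. Ages were read from the side that the labels give each section; if an image were turned against them the 2 ages of that area would be swapped, and the files hold nothing that tells. Age comparisons that rest on area 3 are therefore also given without it.

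All 9 genes were higher in oocyte-rich spots than in the other spots of the same section, in the 4 sections with at least 10 such spots (aged 3 and young 1, 2 and 4). Ooep had 337.7 CPM (UMIs of the gene scaled to the total UMIs of the summed spots) in oocyte-rich and 52.8 CPM in other spots of aged 3. In young 1, 2 and 4 it had 442.5, 298.9 and 407.1 CPM in oocyte-rich spots, against 36.0, 14.2 and 13.1 CPM in other spots. The lowest oocyte-rich value of Ooep lay above the highest value in other spots. Padi6 had 95.8 CPM in oocyte-rich and 22.9 CPM in other spots of aged 3, and 354.3, 241.5 and 411.3 CPM, against 23.8, 9.62 and 13.1 CPM, in young 1, 2 and 4. H1foo had 270.1 CPM in oocyte-rich and 52.8 CPM in other spots of aged 3, and 171.8, 119.6 and 83.8 CPM, against 16.3, 3.27 and 2.84 CPM, in young 1, 2 and 4. For both genes the oocyte-rich spots were higher in all 4 sections, and aged 3 had the highest H1foo and the lowest Padi6 of the oocyte-rich spots.

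Log2 fold changes of oocyte-rich over other spots, with section as a factor, were 3.95 ± 0.29 for Ooep, 3.83 ± 0.24 for Khdc3 and 3.80 ± 0.24 for Nlrp5, the genes of the subcortical maternal complex other than Tle6 (± standard error of the fit). They were 4.09 ± 0.33 for Padi6, 4.36 ± 0.28 for Nlrp14 and 4.08 ± 0.29 for Zar1. Dppa3 stood at 3.53 ± 0.17 and H1foo at 3.86 ± 0.35. All 9 genes passed edgeR's quasi-likelihood test with Benjamini-Hochberg adjustment over 12554 genes (adjusted p = 5.28e-06 for Dppa3 to 0.000723 for Tle6). Of all genes tested, 12.5% passed in either direction and 6.66% were higher. The spots were chosen on other oocyte genes, so that a difference of oocyte transcripts in this direction was built into the comparison, and its size is what is described.

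**Figure D1:**
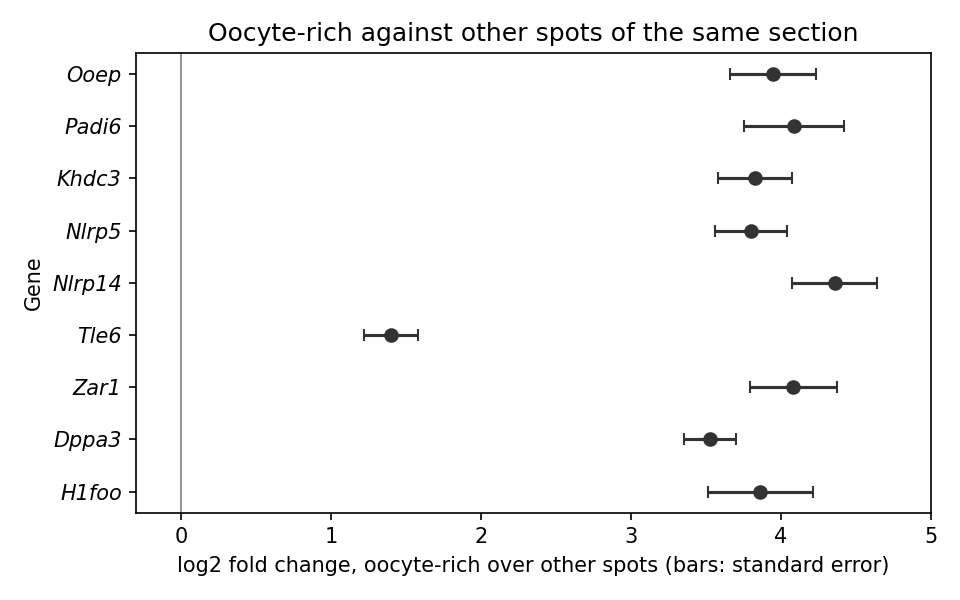
Log2 fold change of each gene, oocyte-rich spots over the other spots of the same section, with the standard error of the edgeR fit (aged 3 and young 1, 2 and 4). Tle6 lies at 1.40 and the other 8 genes lie between 3.53 and 4.36.

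Tle6, which encodes a Groucho-family protein of the subcortical maternal complex, had the smallest change of the 9 genes at 1.40 ± 0.18. In oocyte-rich spots it had 124.1 CPM in aged 3 and 140.8, 123.9 and 144.7 CPM in young 1, 2 and 4. The other spots held 85.5 CPM in aged 3 and 42.3, 53.6 and 36.8 CPM in young 1, 2 and 4. Oocyte-rich spots were higher in all 4 sections, and the lowest of them lay above the highest value of the other spots.

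Other genes known from maternal-effect studies were also described from a list of 33, of which 33 were tested and 21 were higher and 0 lower (median log2 fold change 1.74, against 12.5% of all genes tested passing in either direction). The 3 with the lowest p were Npm2, which encodes the oocyte nucleoplasmin (log2 fold change 3.81), Zbed3 (2.13), and Ybx2, which encodes an RNA-binding protein of germ cells (3.77). Of genes on the list that many cells use, Dnmt1, a DNA methyltransferase, had a log2 fold change of 1.43, and Ctcf, a chromatin protein, had 0.12 and did not pass (adjusted p = 0.559, edgeR). Of oocyte-restricted genes on a further list of 24, 23 were tested and all 23 were higher (median 3.90). Of 6 oocyte transcription regulators 5 were tested and 4 were higher, among them Nobox (3.58) and Lhx8 (3.56); Figla (4.20) was one of the genes that chose the spots. Markers of other cells moved in these spots too: 6 of 16 granulosa genes and 4 of 8 surface epithelium genes were higher, and 8 of 10 corpus luteum genes and 6 of 7 macrophage genes were lower. Their part in the members' differences was not tested.

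The spread of the transcripts around oocyte-rich spots was then described by distance on the array. Summed over the 8 genes other than Tle6, levels were 1452 ± 240.4 CPM in oocyte-rich spots, 267.4 ± 160.8 CPM in the spots touching them, 166.9 ± 168.4 CPM at a distance of 2 spots and 60.8 ± 41.6 CPM at 3 or more (mean ± SD of 4 sections). Aged 3 stood above the young sections at a distance of 1 (502.2 CPM, against 137.1 to 218.0 CPM), of 2 (415.8, against 59.1 to 123.9 CPM) and of 3 or more (115.4, against 27.7 to 71.0 CPM). The cut of 5 UMIs for oocyte-rich spots was the same at every depth. Median depth in touching spots was 6891 UMIs in aged 3, against 18515, 25830 and 15665 UMIs in young 1, 2 and 4. With a cut of 300 CPM instead, aged 3 held 66 oocyte-rich spots instead of 33. Young 1, 2 and 4 held 70, 44 and 67 instead of 99, 69 and 69. The part of depth in the levels of aged 3 was not tested. Tle6 was at 133.4 ± 11, 53.0 ± 7.76, 54.3 ± 24.9 and 55.6 ± 26.5 CPM over the same distances. The 8 genes fell with each step on average, whereas the mean of Tle6 was about level from the touching spots outward. Single sections went different ways there: Tle6 had 60.7, 91.6 and 91.7 CPM at distances of 1, 2 and 3 or more in aged 3, and 58.7, 44.1 and 32.1 CPM in young 4. Oocyte-rich spots held 71.2% of the UMIs of the 8 genes and 31.6% of those of Tle6 (mean of 4 sections), and for single genes other than Tle6 the mean ran from 65.6% for Dppa3 to 75.9% for Nlrp14.

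**Figure D2:**
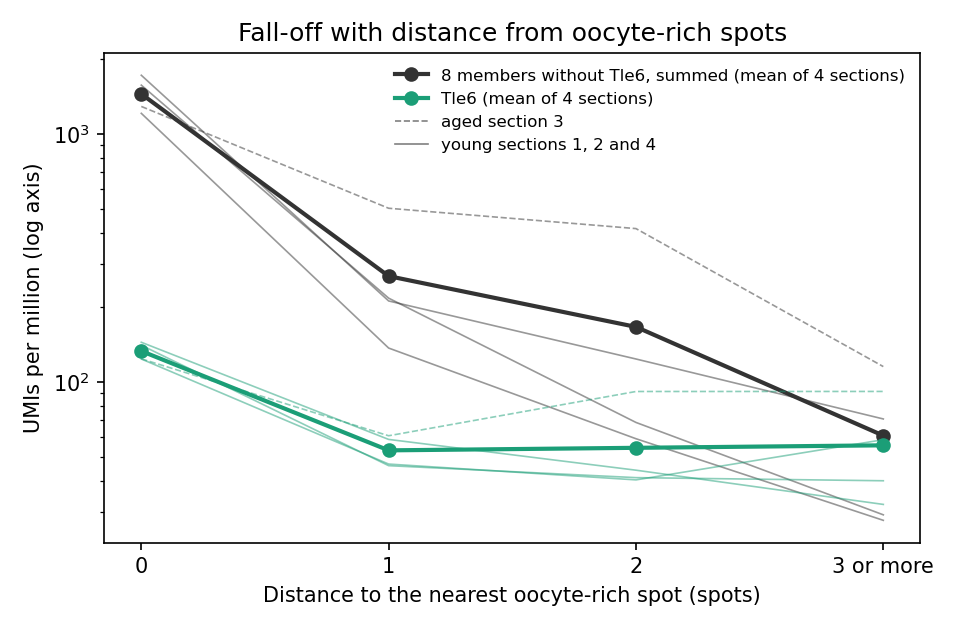
CPM (log axis) by distance to the nearest oocyte-rich spot, for the 8 genes other than Tle6, summed, and for Tle6. Thick lines are means of 4 sections and thin lines single sections; the 8 genes fall to 60.8 CPM at 3 or more spots, and the mean of Tle6 stays at 53.0 to 55.6 CPM beyond distance 0, with aged 3 higher and young 4 lower at 3 or more spots than in the touching spots.

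Many of the 9 genes were caught in the same spots. Of the 8 genes other than Tle6, a median of 6 were detected in each of the 285 oocyte-rich spots of all 8 sections, and 82.1% of those spots held at least 5. Among 3433 spots more than 1 spot away from them, the median was 0 and 0.874% held at least 5 (median depth 23737 and 17003 UMIs). In the richest single spot of aged 3, 53 of 6347 UMIs were Ooep and 23 were H1foo. That of young 1 held 205 Padi6, 151 Ooep and 14 H1foo among 38997 UMIs. The 9 genes together made up 2.93% of the first spot's UMIs and 1.85% of the second's.

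Within oocyte-rich spots the 28 pairs formed by the 8 genes had a median correlation of 0.712 (mean Pearson r of 4 sections, on log(1 + UMIs per 10000)), and the 8 pairs with Tle6 had a median of 0.687. In spots more than 1 spot away from oocyte-rich ones the medians were 0.140 without and 0.003 with Tle6. Such spots were not free of oocyte RNA, since 35.5 (young 2) to 55.3% (young 1) of them held a UMI of the 6 oocyte genes. Ooep and Padi6 were the closest pair in oocyte-rich spots (0.815), and H1foo had the lowest values, with Nlrp5 (0.516) and Padi6 (0.546). These are descriptions over spots of the same libraries, which share depth. Over all 4191 spots and 12740 genes, with the 6 genes that chose the spots left out (r of 0.370 to 0.665), those most like the summed members were Elobl (r = 0.579), Fbxw24 (0.573), Khdc1b (0.570), Npm2 (0.566), E330017A01Rik (0.545), Gm813 (0.522), Dppa5a (0.518), Gm13023 (0.509), Fbxw15 (0.508) and Fbxw18 (0.504). Fbxw genes of this kind belong to an oocyte-expressed F-box family of near-identical copies, so that their single values are uncertain.

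Away from oocyte-rich spots, Tle6 had more UMIs than any other member in every section. It had 73.2, 42.1, 91.6 and 34.8 CPM there in aged sections 1 to 4 and 40.5, 55.2, 54.8 and 34.0 CPM in young sections 1 to 4, and 36.9 to 69.1% of these spots held a Tle6 UMI. The aged and young values overlapped. For comparison, Ooep had 5.57 to 39.7 CPM in the same spots of aged sections and 4.08 to 26.0 CPM in those of young sections. These levels are per gene on a UMI scale, which counts transcript ends and was not set per length.

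To ask where this Tle6 lay, the away spots highest in the markers of each of 10 cell types (the highest 10% of spots) were compared with the other away spots of the same section. Tle6 was lower in spots high in granulosa markers: 21.2, 22.2, 77.2 and 24.4 CPM, against 82.1, 44.1, 93.1 and 35.8 CPM in other spots of aged 1 to 4. In young 1 to 4 it had 39.5, 20.2, 44.4 and 25.8 CPM, against 40.6, 59.7, 56.0 and 34.8 CPM in other spots. The high spots were lower in 8 of 8 sections, by very little in young 1, and the log2 fold change was −0.87 ± 0.18 (adjusted p = 0.00147, edgeR over 12463 genes, where 37.7% of genes passed and 20.4% were lower). Tle6 was also lower in spots high in surface epithelium (−0.57 ± 0.13), oviduct epithelium (−0.52 ± 0.14) and smooth muscle markers (−0.43 ± 0.14), with edgeR adjusted p = 0.00798, 0.0196 and 0.0300. In those comparisons 15.2, 15.5 and 22.2% of genes passed, and 7.44, 8.05 and 11.6% were lower. It did not pass for theca (1.64% of genes passed), endothelium (18.2%), macrophage (5.95%) or B and plasma cell markers (0.209%), nor for corpus luteum or stroma markers. Tle6 passed as higher in none of the 10 comparisons. The highest correlations of Tle6 with other genes over the pooled away spots were weak. Hsd3b1, a steroidogenic enzyme, was highest over the pooled spots (r = 0.204), with a median r of 0.183 over sections. Single sections differed, from r = 0.008 in aged 1 to 0.414 in young 2.

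**Figure D3:**
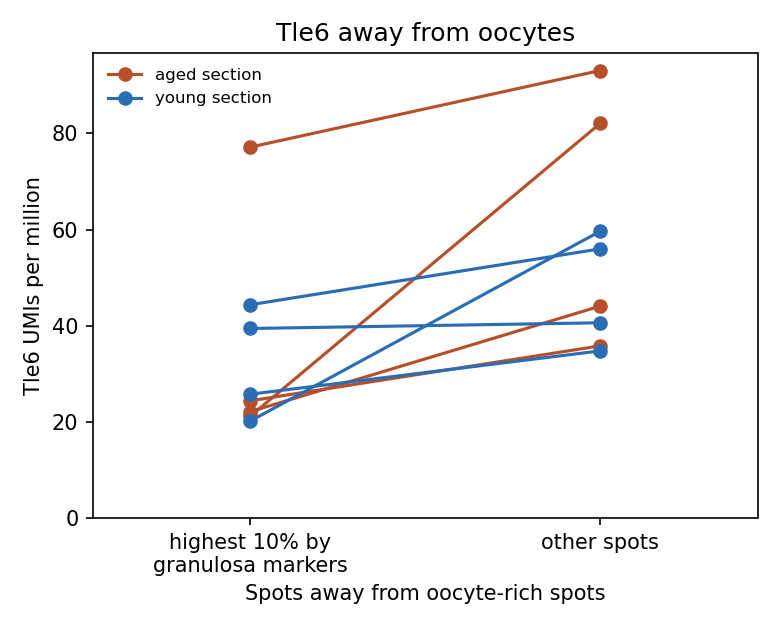
Tle6 CPM in the tenth of away spots highest in granulosa markers and in the other away spots of the same section, with 1 line per section. The line rises to the right in all 8 sections.

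Of the other 8 genes, few passed in the same comparisons. Among away spots, Ooep (−0.70 ± 0.22, edgeR adjusted p = 0.0451) and Padi6 (−1.32 ± 0.37, 0.0269) were lower in those high in corpus luteum markers. In that comparison 17% of genes passed and 8.87% were lower. Padi6 (1.11 ± 0.32, edgeR adjusted p = 0.0123) and Zar1 (1.29 ± 0.39, 0.0154) were higher in spots high in stroma markers, where 24.1% of genes passed and 11.3% were higher. So few calls, set against those backgrounds, are not a result about the members.

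Over whole sections none of the 9 genes passed between aged and young animals, and the values of the ages overlapped for each. Ooep had 10.9, 11.2, 118.1 and 9.73 CPM in aged 1 to 4, against 130.7, 41.5, 6.08 and 46.0 CPM in young 1 to 4. Nlrp5 had 2.37, 1.79, 23.0 and 1.01 CPM in aged and 31.4, 8.93, 2.89 and 12.7 CPM in young sections. Khdc3 had 4.74, 3.79, 46.8 and 2.91 CPM in aged and 45.9, 18.0, 4.33 and 21.1 CPM in young sections. In each of these genes aged 3 was far above the other aged sections and young 3 below the other young sections, so that the ages overlapped.

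The same order held for the remaining genes other than Tle6. Padi6 had 4.34, 4.42, 39.6 and 4.93 CPM in aged and 100.8, 31.9, 6.18 and 46.4 CPM in young sections. Nlrp14 had 2.57, 2.42, 49.3 and 1.52 CPM in aged and 49.5, 14.5, 3.40 and 14.8 CPM in young sections. Zar1 had 2.17, 4.10, 43.9 and 3.28 CPM in aged and 50.4, 18.96, 3.40 and 18.99 CPM in young sections. Every aged section but the third lay below the young sections of areas 1, 2 and 4. Dppa3 had 4.54, 3.79, 52.2 and 2.78 CPM in aged and 43.0, 16.1, 2.06 and 13.8 CPM in young sections. H1foo had 1.38, 4.63, 102.6 and 5.56 CPM in aged and 52.6, 14.4, 1.86 and 9.61 CPM in young sections. Tle6 had 71.9, 43.0, 94.3 and 35.2 CPM in aged and 65.2, 60.4, 56.0 and 45.8 CPM in young sections. Aged 3 held 12.8% oocyte-rich spots, against 0.669 to 0.919% in the other aged sections.

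**Figure D4:**
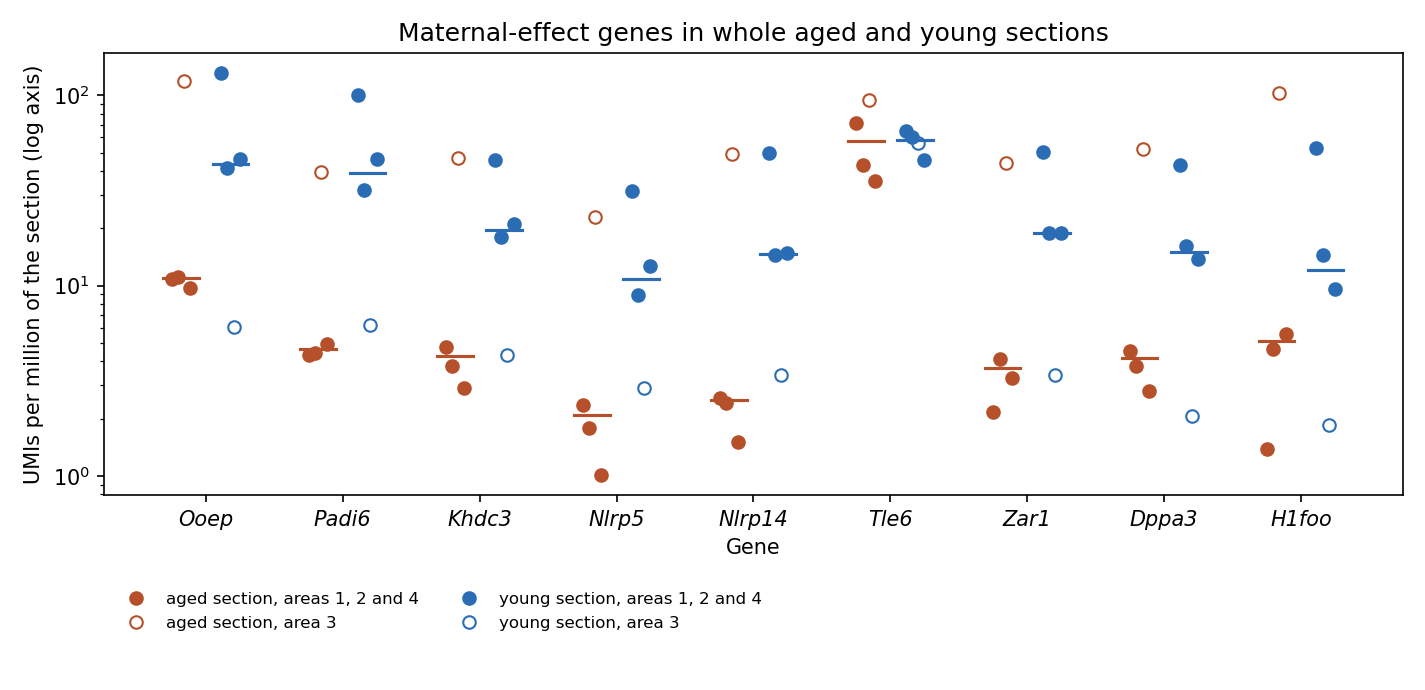
CPM (log axis) of each gene in whole sections, aged left of young; open circles mark area 3 and bars the median of 4 sections. Open circles of area 3 lie opposite to the filled ones for the 8 genes other than Tle6, and the ages overlap for all 9.

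None of the 9 genes passed over whole sections (edgeR, 14044 genes, 0% passed; 392 genes at an unadjusted p under 0.05, and 5 of 22697 by DESeq2, no member among them). Log2 fold changes of aged over young were −2.05 ± 0.90 for Padi6 (unadjusted p = 0.0476), −0.80 ± 0.97 for Ooep, 0.28 ± 1.22 for H1foo and 0.07 ± 0.26 for Tle6. The median over the 9 genes was −0.85, against 0.013 over all genes tested. It was −2.50 without aged 3, −2.85 without both sections of area 3 and 0.04 without young 1. At an unadjusted p under 0.05 (edgeR) were 7 of the 9 genes without aged 3 (766 of 14200 genes tested). There were 8 without area 3 (1261 of 14134) and 0 without young 1 (252 of 14289). None passed after adjustment, and the members share spots, so that they are not separate cases. The CPM of the ages overlapped for all 9 genes, and 1.38% of all genes had ages that did not overlap. Fewer oocytes in a section and less RNA per oocyte cannot be told apart in these sums. Granulosa markers had positive log2 fold changes of aged over young in 15 of 16 genes (none passed), and mitochondrial share was higher in 4 of 4 aged sections than in the young section of its area; their part was not tested.

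The share of spots with at least 1 UMI followed the same pattern in spots thinned to 5000 UMIs. Shallower spots were left out, which were 18, 122, 62 and 78 spots of aged 1 to 4 and 11, 4, 75 and 20 spots of young 1 to 4. For Ooep it was 4.27, 3.39, 27.2 and 4.14% in aged 1 to 4 and 26.3, 11.4, 2.78 and 12.9% in young 1 to 4. In unthinned spots away from oocyte-rich ones, Ooep was found in 6.73 to 27.8% of aged and 6.32 to 35.8% of young spots. The mean thinned share was lower in aged sections for 8 of the 9 genes, all but H1foo, with SDs that overlapped. The exception rested on aged 3 (26.2% for H1foo). In areas 1, 2 and 4 H1foo had 0.356, 2.26 and 2.96% in aged and 13.6, 4.27 and 4.99% in young sections. Thinned to 2000 UMIs, the mean of Dppa3 was also higher in aged sections (3.25%, against 3.15%). This count was not taken over all genes. For Tle6 it was 24.5 ± 7.20% in aged and 25.4 ± 1.03% in young sections (SD, n = 4 each).

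Levels where oocyte RNA was caught were compared between ages next. At 5 UMIs of the 6 oocyte genes, only aged 3 among the aged sections held 10 such spots, so the comparison used spots with at least 3 UMIs, in aged 2 and 3 and young 1, 2 and 4. Padi6 had 96.3 and 85.5 CPM in these spots of aged 2 and 3, against 246.2, 167.6 and 291.9 CPM in young 1, 2 and 4, and the ages did not overlap. H1foo had 125.2 and 250.9 CPM in aged, against 118.8, 80.9 and 61.3 CPM in young sections, without overlap. Dppa3 had 105.9 and 134.6 CPM in aged, against 99.2, 74.7 and 73.7 CPM in young sections, also without overlap. These were 3 of the 9 genes, and 35% of all genes tested had ages that did not overlap in these spots, a share near that of the members.

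No member passed in these spots (edgeR over 12061 genes, 0.00829% passed). The log2 fold changes of aged over young were −1.36 ± 0.29 for Padi6 (adjusted p = 0.131), 1.18 ± 0.35 for H1foo (0.179) and 0.59 ± 0.24 for Dppa3 (0.266). Nlrp5 stood at −0.51 ± 0.32 and the other 5 genes lay between 0.02 and 0.17. Without aged 3, where aged 2 alone stands for its age, they were −1.23 for Padi6, 0.56 for H1foo, 0.40 for Dppa3 and −1.37 for Nlrp5, and none passed. Padi6 passed in 3 alternatives of the fit and without area 2, where aged 3 alone stands for its age, as given under the dependence on processing. In those fits more of all genes passed too. The 5 UMIs of the Nlrp5 count in aged 2 and the 20 of Padi6 show how few molecules that section adds. Marker sums of surrounding tissue lay apart between ages in the same spots, though no gene of the marker lists passed. Granulosa markers had 5156 and 9431 CPM in aged, against 4520, 3572 and 3452 CPM in young sections. Smooth muscle markers had 630.6 and 521.1 CPM in aged, against 1264, 1332 and 2812 CPM in young sections. All 10 corpus luteum, 9 stroma, 8 endothelium and 8 surface epithelium genes tested had negative log2 fold changes there. Their part in the difference of the members was not tested.

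Levels were also counted per UMI of the 6 oocyte genes, in spots with at least 5 of them, where a section held at least 50 such UMIs. Padi6 had 0.235 and 0.154 UMIs in aged 2 and 3, against 0.415, 0.389, 0.355 and 0.393 in young 1 to 4. H1foo had 0.259 and 0.434 in aged, against 0.201, 0.193, 0.0263 and 0.0800 in young sections. These aged values of Padi6 lay below, and those of H1foo above, every young value, young 3 included. They were not alone in this, since the ages of Khdc3, Nlrp5 and Dppa3 did not overlap either. Those of Nlrp5 did overlap where the spots were set at 3 UMIs, at 10 UMIs or at 300 CPM of the 6 genes. The share of all genes without overlap was not taken for this ratio, so that these cases have no background to be read against. Aged 1 and 4 held 13 and 26 UMIs of the 6 genes there and were left out. They had 3 and 7 UMIs of Padi6 (0.231 and 0.269 per UMI of the 6 genes) and 1 and 21 UMIs of H1foo (0.0769 and 0.808), so that H1foo of aged 1 lay within the young range. The 6 genes differed among themselves between ages in the fit of spots with at least 3 UMIs. Log2 fold changes of aged over young ran from −1.63 for Figla and −0.82 for Zp3 to 0.63 for Gdf9 and 1.38 for Bmp15 (none passed), a range as wide as that from Padi6 to H1foo or wider. Over whole sections the ratios of both genes overlapped between ages (Padi6 0.184 to 0.368 in aged and 0.333 to 0.417 in young; H1foo 0.0864 to 0.476 in aged and 0.0841 to 0.217 in young). The ratio of H1foo to Padi6 in whole sections was 0.318, 1.05, 2.59 and 1.13 in aged 1 to 4, against 0.521, 0.453, 0.300 and 0.207 in young 1 to 4. Aged 1, with 7 H1foo and 22 Padi6 UMIs in all, was the aged section within the young range.

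The balance of H1foo and Padi6 was examined by groups of touching oocyte-rich spots. These genes had the highest and lowest log2 fold changes of aged over young in overlapping spots (1.18 and −1.36). A difference of their ratio in this direction was therefore built in, and groups are not replicates of an age. Among groups with at least 20 UMIs of both genes together, H1foo exceeded Padi6 in 5 of 5 groups of the aged sections and in 5 of 28 groups of the young sections. Ratios ran from 1.60 to 4.00 in the aged sections and from 0 to 6.0 in the young sections, with medians of 3.00 and 0.311. Without aged 3, 2 aged groups remained, 1 each in aged 2 and 4, with ratios of 2.71 and 3.00. The young sections thus spanned the aged range, and groups of 1 section share an animal. Granulosa markers in young groups with more H1foo than Padi6, all of young 1 and 2, had a median of 7370 CPM. The median was 3714 CPM in the other young groups and 10169 CPM in aged groups. Single groups went the other way: an aged 3 group at 865.9 CPM had a ratio of 1.60, and a young 2 group at 11686 CPM had 0.0294. Across 11 groups of young 1 the log2 ratio had r = 0.835 with log2 granulosa CPM, across 10 groups of young 2 it had r = −0.100 and across 6 groups of young 4 it had r = 0.348, so that the relation was not the same in each section. Over 26 groups pooled from sections of both ages, H1foo also had the widest log2 ratio to the 6 oocyte genes. Its SD was 1.36, against 0.53 to 0.86 for the other 8 genes. That SD includes differences between sections and ages, and 1 of the groups held no H1foo UMI. An SD within sections is not given here.

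**Figure D5:**
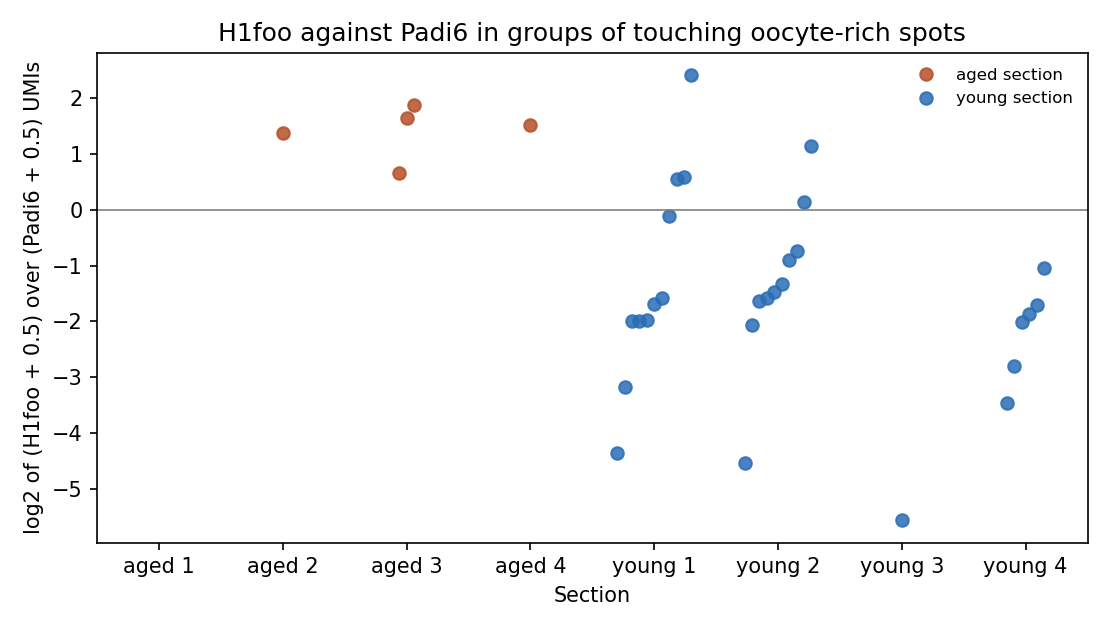
Log2 of the ratio of H1foo to Padi6 UMIs, each with 0.5 added, in groups of touching oocyte-rich spots with at least 20 UMIs of both genes; each point is a group, with aged sections left of young ones. All 5 aged groups lie above 0, and 5 of the 28 young groups do.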

How the data were processed

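Ovary sections were measured with Visium. The deposited values are raw UMI counts for each gene in each spot, as whole numbers whose totals differ between spots show. The submitters' processing notes name Space Ranger 1.2.1 and build mm10; the annotation and whether counting used strand are not stated there. Deposited position files (other units) marked 4263 tissue spots, of which 72 had no column and were left out. A spot's section was set by splitting the positions at their widest gap, on the sides named in the labels, without use of expression. The 9 genes, the lists and the tests were chosen with earlier results of these data known.

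Counts were summed per section or spot class, because the animal is the replicate, and tested with edgeR 4.0.16 (R 4.3.3, limma 3.58.1; TMM, filterByExpr, quasi-likelihood test, Benjamini-Hochberg at 0.05), with DESeq2 1.42.0 as an alternative. Log2 fold changes come from that fit and CPM from the summed counts without TMM factors. The fits were run on simulated data with 200 changed genes as a check of the code. Those data had 1 spread for all genes and none of the differences between sections of an age seen here. They therefore carry no support for the comparisons reported. The age comparison in oocyte-rich spots had been designed for at least 5 UMIs of the 6 oocyte genes and could not be fitted, so that at least 3 UMIs is reported. Area numbers mark a shared capture area; residuals of the sections of areas 1 to 4 around their age means correlated at 0.00358, 0.165, −0.224 and 0.208, and the area entered only an alternative. Genes named beside the 9 were the 3 with the lowest p on each of 2 lists and the 10 most alike over spots among genes with at least 200 UMIs; Dnmt1, Ctcf and Hsd3b1 were added after their values were seen. Python 3.11.15, numpy 2.4.6 and pandas 2.3.3 were used, with gene positions from GENCODE.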

Additional observations from a re-analysis of the deposited data

Results flagged for a closer look

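Aged section 3 stood apart from the other 3 aged sections for 8 of the 9 genes, where the gap to its nearest neighbour, as a part of the range of the 4 aged sections, was over Dixon's critical value. Its levels were 118.1 CPM for Ooep, 39.6 CPM for Padi6, 46.8 CPM for Khdc3, 23.0 CPM for Nlrp5, 49.3 CPM for Nlrp14, 43.9 CPM for Zar1, 52.2 CPM for Dppa3 and 102.6 CPM for H1foo. Tle6 was not among them. No young section stood apart by this measure for any of the 9 genes. Chance gives about 1 such case in 20 groups, and 18 groups were examined. The 8 genes share spots, so that these are not 8 separate cases.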

How the results depend on the processing

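In whole sections 0 of the 9 genes passed in any alternative, leave-outs included. With area as a replicate block the log2 fold change of H1foo was −0.85, and 8 of the 9 genes were negative. In spots away from oocyte-rich ones, an alternative chosen after seeing the data, Ooep stood at 0.072 and Nlrp14 at 0.42. Leaving out sections or areas, the range was −3.64 to −1.04 for Padi6, −3.32 to −0.22 for Nlrp5, −2.72 to 0.34 for Ooep, −2.85 to 0.037 for Khdc3, −3.54 to 0.41 for Nlrp14, −0.18 to 0.25 for Tle6, −3.10 to 0.045 for Zar1, −2.67 to 0.59 for Dppa3 and −2.61 to 1.83 for H1foo.

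In the age comparison of oocyte-rich spots, 0 of the 9 genes passed, against 1 with DESeq2 (Padi6, adjusted p = 0.00707), 2 with no filter on low counts (Padi6, 0.000866, and H1foo, 0.00316), 1 with spots at 300 CPM of the reference genes (Padi6, 0.0271) and 0 to 1 in leave-outs (Padi6, 0.0405 without area 2). Of all genes, 2.11% of those with an adjusted p passed with DESeq2, 3.9% with no filter, 0.273% at 300 CPM and 1.31% without area 2, against 0.00829%. Without area 2 the aged arm is aged 3 alone, assumed to vary like the young sections. Over all alternatives the adjusted p was 0.000866 to 0.584 for Padi6 and 0.00316 to 0.786 for H1foo. At 300 CPM, Ooep was −0.47, Khdc3 −0.40, Nlrp14 −0.49, Tle6 −0.28 and Zar1 −0.50; with no filter, Khdc3 was −0.014, Tle6 −0.017 and Zar1 −0.026, and with library size alone Zar1 was −0.00028. Leave-outs gave −1.63 to −1.20 for Padi6, 0.56 to 1.48 for H1foo, −1.37 to −0.30 for Nlrp5, 0.40 to 0.75 for Dppa3, −0.065 to 0.18 for Ooep, −0.065 to 0.15 for Khdc3, −0.077 to 0.35 for Nlrp14, −0.027 to 0.076 for Tle6 and −0.13 to 0.14 for Zar1. The area block could not be fitted here, since only area 2 had both ages, and the alternative of at least 10 UMIs was not run, since only 1 aged section remained. The 9 calls of oocyte-rich against other spots held in every alternative (9 to 9 in leave-outs), while of all genes 1573 passed, against 638 to 2669 without a section, 2303 at 10 UMIs, 2454 at 300 CPM and 2584 with no filter. Tle6 passed in spots high in granulosa markers in every alternative, with 1 to 2 genes passing in leave-outs (H1foo without young 2 or young 4, adjusted p = 0.0396 and 0.0359); leave-outs gave −0.052 to 0.18 for Ooep, −0.24 to 0.21 for Nlrp14 and −0.23 to 0.23 for Dppa3.

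Per UMI of the 6 oocyte genes, 2 of 9 genes were lower in aged sections, and 4 over whole sections. Oocyte-rich spots held 70.4% of a member's UMIs, 79.9% at 3 UMIs and 55.5% at 10 UMIs. Each value is the mean, over aged 3 and young 1, 2 and 4, of the median of the 9 genes. The cause of these changes was not tested. Low counts of the members limit aged 1, 2 and 4, where single genes rest on 7 to 106 UMIs outside Tle6. These sections held 2, 6 and 3 oocyte-rich spots. Their median depth per spot (13004 to 14928 UMIs) was above that of aged 3 (8779 UMIs).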
